A study of Mus musculus with 22 samples.

Results

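The genes described here encode subunits and assembly factors of the mitochondrial respiratory chain and the ATP synthase, measured in mouse gamma-delta thymocytes. They were taken by symbol, as every probe set with exactly 1 gene symbol that begins with Nduf, Uqcr, Atp5 or Cox4 to Cox8 or that names a subunit of succinate dehydrogenase (Sdha, Sdhb, Sdhc or Sdhd). The rule gave 60 of the 14860 genes on the array, each with 1 probe set. A further 7 probe sets listed such a symbol beside another gene's and were left out. RNA was measured on 22 arrays of sorted thymocytes from female C57BL/6 mice aged 8 weeks, which carried no genetic change or treatment per the labels. Surface staining had separated cells with a Vg1.1+ or a Vg2+ receptor, and each of these by CD24, a surface protein of immature thymocytes, and CD73, which appears on cells committed to the gamma-delta lineage. The 6 groups were Vg1.1+ cells that were CD24+CD73- (4 arrays), CD24+CD73+ (3 arrays) and CD24-CD73+ (4 arrays), and Vg2+ cells at the same stages (3, 4 and 4 arrays). The series compares the subsets at each stage. The labels call the replicates biological and do not say that each came from other animals, and a p-value here reflects how far these samples scatter, which may in part be technical.

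The respiratory chain passes electrons from NADH and succinate to oxygen and pumps protons across the inner mitochondrial membrane, and the ATP synthase lets the protons flow back to make ATP. Complex I takes electrons from NADH, complex II (succinate dehydrogenase) from succinate, complex III hands them to cytochrome c and complex IV to oxygen. Dividing thymocytes draw on this pathway for ATP and for precursors, and mature resting T cells rely largely on it for their ATP. A few subunits of complexes I, III and IV and of the ATP synthase are encoded in mitochondrial DNA. None of those was represented by a probe set with 1 symbol, and all values below concern nuclear genes.

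The values are log2 expression values, on which a difference of 1 is a change of 2-fold. Testing was limited to the 8545 genes whose value was above 4.55 (the median over the whole table) on 3 or more arrays. Of the 60 genes 57 passed: the 5 core subunits that the rule gave, 22 accessory subunits and 6 assembly factors of complex I, 4 subunits of complex II, 5 of complex III, 7 of 10 of complex IV and 8 of the ATP synthase. The other 3 were isoforms known from other tissues. Cox4i2, the lung form of subunit 4, read 3.37 to 4.43 over the 22 arrays, Cox8b, a form of heart and skeletal muscle, read 3.29 to 4.37, and Cox7b2, the testis form of subunit 7b, read 1.32 to 2.64. Different probe sets bind with different strength, so levels are compared between groups and not between genes. In these sorted populations fewer cells of a kind and less RNA per cell cannot be told apart.

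Nt5e, which encodes CD73, followed the sort: its log2 value was 3.04 to 3.93 on the arrays of CD24+CD73- cells and 6.77 to 8.74 on all others. A pair of arrays stood apart in the spread of their log2 values, and the respiratory chain genes were low on both. Vg1.1+ CD24-CD73+ replicate 1 had an SD of 1.61 over all probe sets and Vg2+ CD24+CD73+ replicate 3 an SD of 1.71, against 1.81 to 2.09 on the other 20 arrays. The median level of the 57 genes was 7.62 and 7.64 on these arrays and 8.12 to 8.68 on the others. The median over all tested genes was lowest there too, at 5.68 and 5.74 against 5.81 to 5.99. On the first array 11 of the 57 genes lay more than 1 below the mean of the rest of their group, as did 8.43% of all tested genes, and on the second 13 of 57, as did 3.84% of all tested genes. Both arrays had the genes on the same side in most cases: 39 of 57 lay below the rest of the group on both and 11 above on both. The same count was not made for all tested genes. The other 20 arrays each had 0 or 1 of the 57 genes more than 1 below the rest of the group. Values without this pair of arrays are therefore given beside many of the results below, and whether the narrow spread caused the low values was not tested.

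**Figure D1:**
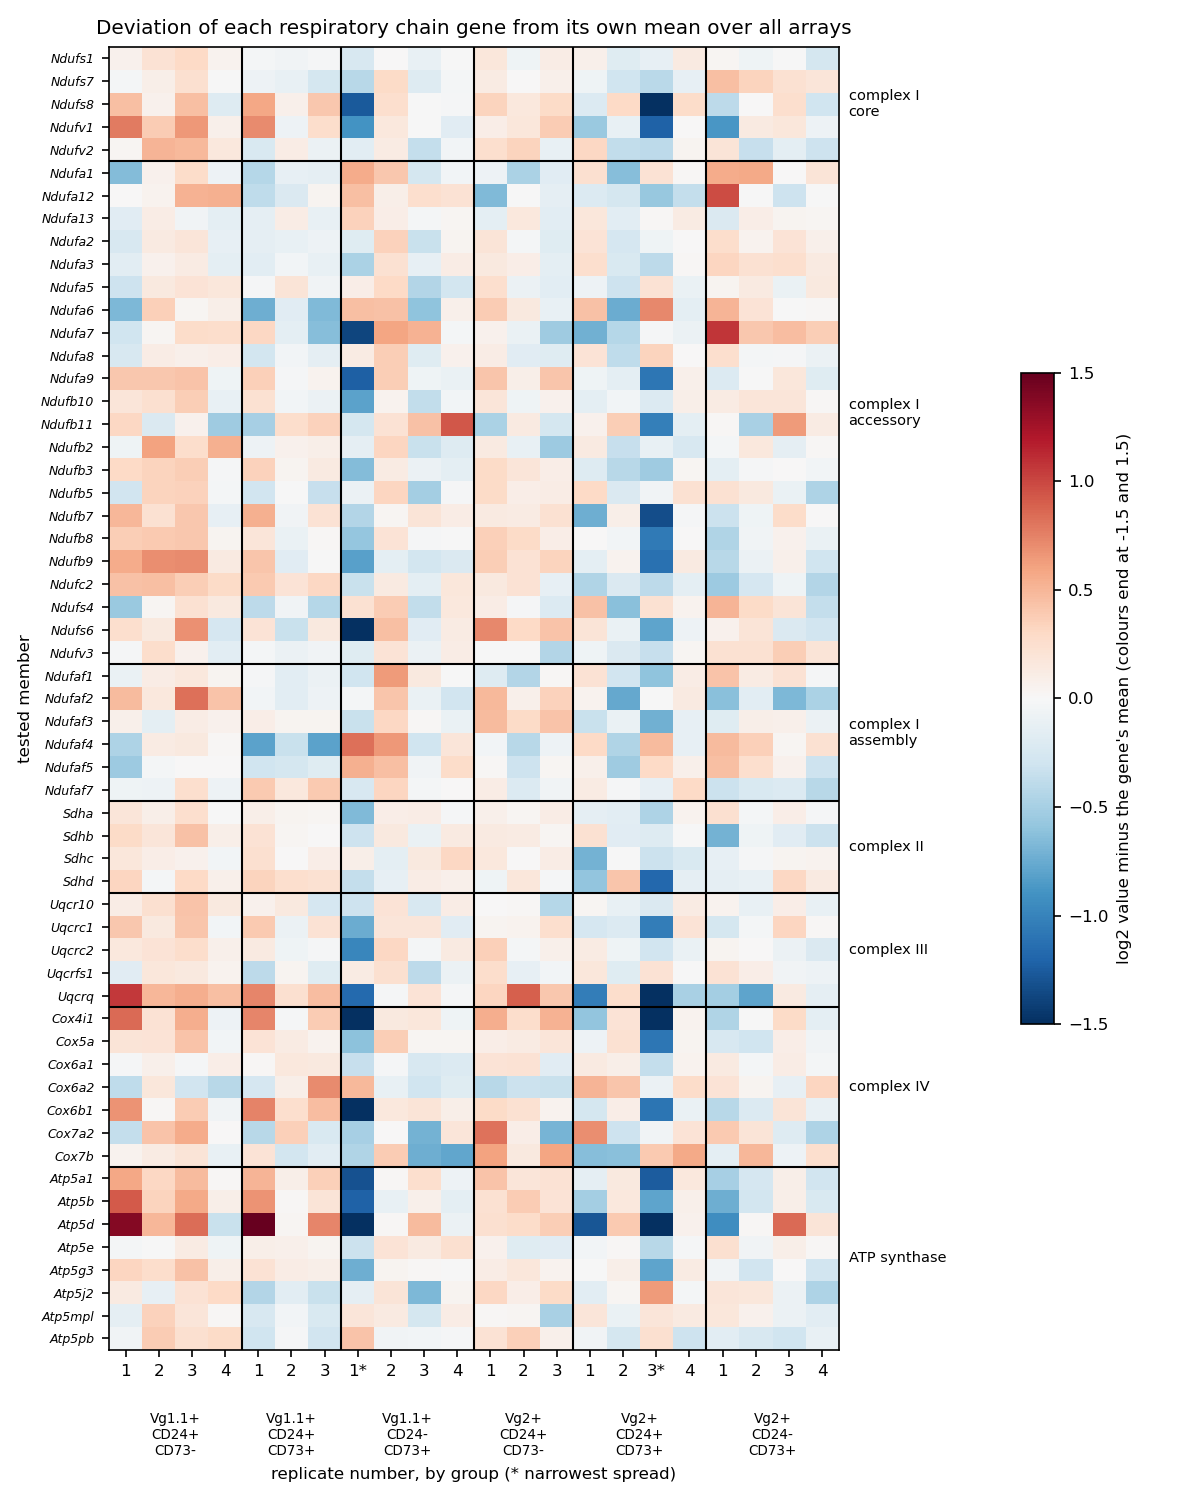
Log2 value of each of the 57 tested genes on each of the 22 arrays, minus the gene's mean over all arrays (blue below, red above, colours end at -1.5 and 1.5). Rows are genes ordered by complex, columns are arrays ordered by group with replicate numbers, and a star marks the 2 arrays of narrowest spread. The starred columns hold most of the dark blue cells, and the first stage of Vg1.1+ cells holds many of the red ones.

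The group means of most of the 57 genes lay within 2-fold of each other, a range not worked out for all tested genes. The range of the 6 group means was 0.54 for the median gene and exceeded 1 for 3 of 57, Atp5d (1.75), Uqcrq (1.47) and Cox4i1 (1.03). Without the 2 narrow arrays the range was 0.46 for the median gene and exceeded 1 for 2 of 57, Uqcrq (1.06) and Atp5d (1.04). That of Cox4i1 was then 0.55. With all arrays the highest mean lay in Vg1.1+ CD24+CD73- cells for 25 genes and the lowest in Vg2+ CD24+CD73+ cells for 21. The latter group holds 1 of the narrow arrays. These counts were not made without the narrow arrays or for all tested genes. The pooled SD of the 57 genes within groups was 0.279 for the median gene, against 0.218 for the median tested gene. Without the 2 narrow arrays these SDs were 0.211 and 0.181. With all arrays Ndufs1, the largest subunit of complex I, had the lowest pooled SD (0.12), and Ndufa5, an accessory subunit, the smallest range of group means (0.13). Atp5d, the delta subunit of the ATP synthase, had the largest pooled SD of the 57.

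A gene is called here where limma gave a p-value, adjusted over all 8545 tested genes by Benjamini and Hochberg, under 0.05. In 11 comparisons 15 of the 57 genes were called at least once, 4 of them in 2 comparisons, and 42 in none. The share of all tested genes called at least once was not worked out, so these counts cannot be read as many or few. The first step, in which CD73 appears (CD24+CD73+ minus CD24+CD73-), gave 0 called of 57 in Vg1.1+ cells beside 7.82% of all tested genes (at an unadjusted p under 0.05, 5 of the 57 beside 18% of all), and 3 lower in Vg2+ cells beside 12.2%. The second step, in which CD24 is lost (CD24-CD73+ minus CD24+CD73+), gave 1 higher in Vg1.1+ cells beside 11.2%, and 2 higher and 1 lower in Vg2+ cells beside 20.2%. From the first to the last stage 5 were lower in Vg1.1+ cells beside 23.3%, and 1 was higher and 5 lower in Vg2+ cells beside 24%. In each of these 6 comparisons the share of the 57 genes called lay below the background share, as a description with no test. Without the 2 narrow arrays the counts were 1 beside 11.6% and 4 beside 14.1% for the CD73 step, 1 beside 11.3% and 4 beside 23.1% for the CD24 step, and 1 beside 24.6% and 15 beside 31.4% over the whole course (Vg1.1+ and then Vg2+ cells each time). The last of these, 3 higher and 12 lower, was the largest count and still lay below its background. At an unadjusted limma p under 0.05, with all arrays, the CD73 step of Vg2+ cells had 15 of 57 (26.3%) beside 24.6%, above its background. The CD24 step had 14% in each subset beside 25.5% and 30.8%, and the course 29.8% and 17.5% beside 34% and 33.5%. The 57 genes scattered more within groups than the median tested gene, and the part of this in the counts was not tested.

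**Figure D2:**
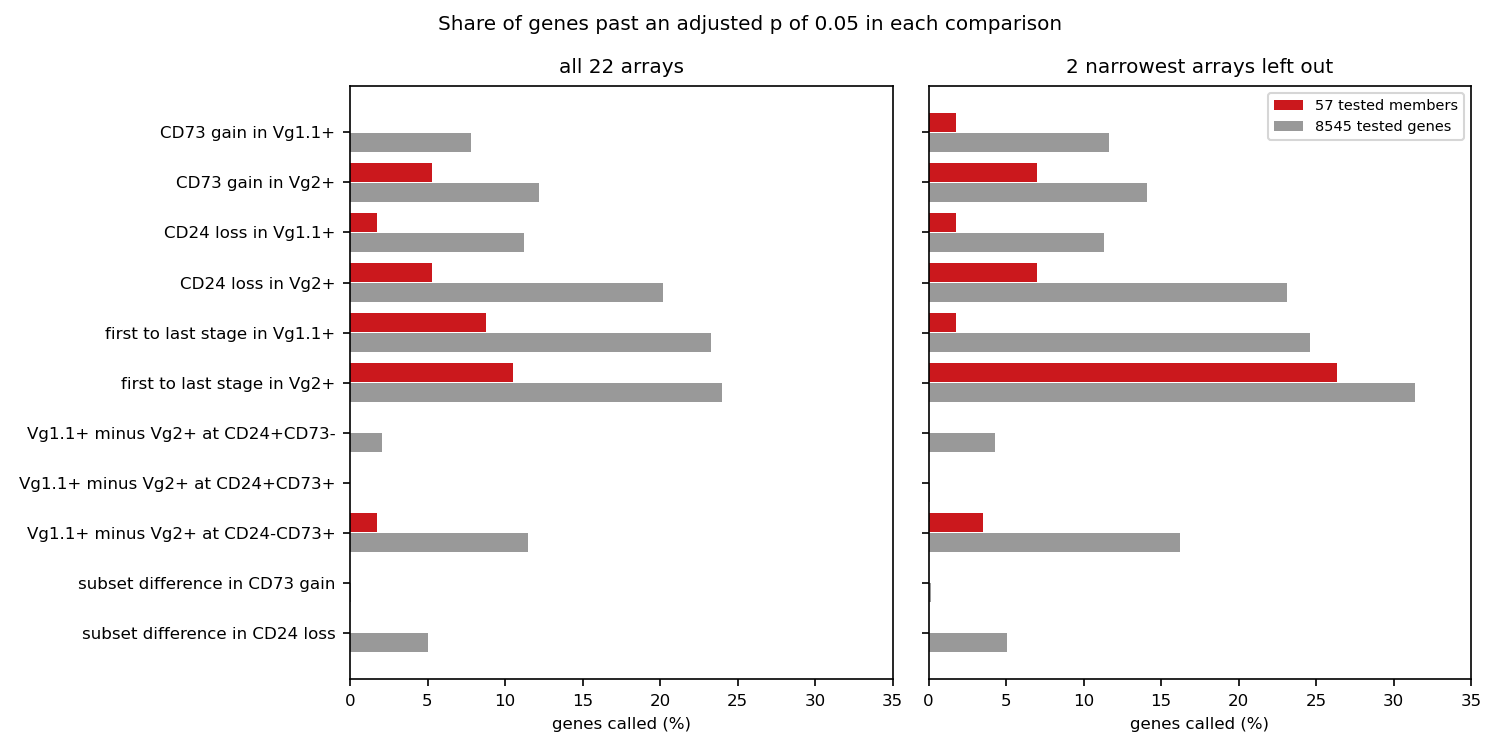
Percentage of genes called in each of the 11 comparisons, for the 57 tested respiratory chain genes (red bars) and for all 8545 tested genes (grey bars), with all 22 arrays on the left and without the 2 arrays of narrowest spread on the right. In every comparison with a visible grey bar the red bar is shorter, and the longest red bar is that of the course of Vg2+ cells without the narrow arrays (15 of 57 beside 31.4%).

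The 4 genes called in 2 comparisons were the core subunit Ndufs7, the accessory subunits Ndufc2 and Ndufv3, and the assembly factor Ndufaf3. All relate to complex I, whose 5 core subunits, 22 accessory subunits and 6 assembly factors made up most of the 57 tested genes. Whether this exceeds the share of such genes in the list was not tested. The 2 calls of Ndufs7, of Ndufv3 and of Ndufaf3 share a group of arrays, and those of Ndufc2 do not. The promoters of these 4 genes are printed because they are the ones on which more than 1 call rests. Each runs from 250 bases before to 50 after the RefSeq gene start (build GRCm38.p6), is given 5′ to 3′ on the gene's strand, and has in capitals any match to the motifs searched.
Ndufs7: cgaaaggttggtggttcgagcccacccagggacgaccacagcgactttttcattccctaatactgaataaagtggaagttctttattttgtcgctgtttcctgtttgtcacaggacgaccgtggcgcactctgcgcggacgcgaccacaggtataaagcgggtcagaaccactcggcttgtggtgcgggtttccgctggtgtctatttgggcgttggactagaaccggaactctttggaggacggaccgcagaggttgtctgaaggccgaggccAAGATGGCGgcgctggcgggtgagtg
Ndufc2: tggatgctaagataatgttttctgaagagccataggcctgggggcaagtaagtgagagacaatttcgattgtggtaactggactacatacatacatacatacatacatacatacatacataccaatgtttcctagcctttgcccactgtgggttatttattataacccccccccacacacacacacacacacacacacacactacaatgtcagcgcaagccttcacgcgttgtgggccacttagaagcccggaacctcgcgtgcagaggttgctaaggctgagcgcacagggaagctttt
Ndufv3: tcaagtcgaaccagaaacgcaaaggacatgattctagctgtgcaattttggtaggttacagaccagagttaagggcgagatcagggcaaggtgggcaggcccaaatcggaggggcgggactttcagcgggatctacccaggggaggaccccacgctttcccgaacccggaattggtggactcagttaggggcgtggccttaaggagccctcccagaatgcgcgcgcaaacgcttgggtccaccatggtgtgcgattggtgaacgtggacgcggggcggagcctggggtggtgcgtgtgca
Ndufaf3: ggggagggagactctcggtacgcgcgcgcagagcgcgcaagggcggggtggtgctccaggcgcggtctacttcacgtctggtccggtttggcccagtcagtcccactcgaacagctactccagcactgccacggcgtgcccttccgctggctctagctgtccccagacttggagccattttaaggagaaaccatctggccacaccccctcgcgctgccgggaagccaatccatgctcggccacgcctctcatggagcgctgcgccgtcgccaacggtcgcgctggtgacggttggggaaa
These lie at chr10:80249199-80249498 (plus strand), chr7:97399753-97400052 (plus), chr17:31519865-31520164 (plus) and chr9:108567387-108567686 (minus). The capitals in Ndufs7 are the YY1 motif AAGATGGCG, at 25 bases after the start, and the other 3 windows held none of the motifs. The motifs were those of factors known for nuclear genes of mitochondrial proteins, read on both strands: the full palindromic NRF1 motif, its shorter form GCGCATGC (which every full NRF1 motif also holds), the ETS motif CCGGAAG bound by GABP, and the YY1 motif. A window was found for 49 of the 60 genes. The NRF1 motif occurred in 4 of the 49 (Cox6a1, Ndufaf4, Ndufaf5 and Uqcrc1), or 8.16%, beside 2.5% of the windows of tested genes and 1.07% of all 27025 genes. The shorter form occurred in 14.3% (6.45% of tested, 3.05% of all), the YY1 motif in 10.2% (3.91% and 1.64%), among them Ndufs7 and Ndufs4, and the ETS motif in 16.3% (21.2% and 9.93%). A match is a run of letters and says nothing of binding.

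The core subunits of complex I carry its electron path. Ndufs7, an iron-sulphur subunit beside the ubiquinone site, read 8.83, 8.59, 8.48 and 8.77 on the arrays of Vg2+ CD24+CD73+ cells and 9.33, 9.22, 9.12 and 9.07 after CD24 loss. The groups did not overlap, and the gene rose by 0.52 ± 0.12 (log2 difference ± SE, n = 4 and 4 arrays, limma adjusted p = 0.00426). The rise was 0.46 (adjusted p = 0.00527) without the narrow arrays, and the call held with any 1 array left out. In Vg1.1+ CD24-CD73+ cells Ndufs7 read 8.47, 9.18, 8.69 and 8.86, so that 1 of those arrays lay within the Vg2+ range. Ndufs7 was lower there than in Vg2+ cells by 0.39 ± 0.12 (limma adjusted p = 0.0491), a call lost on dropping any 1 of 20 of the 22 arrays (adjusted p up to 0.133). Without the narrow arrays Ndufs7 was lower in these Vg1.1+ cells than in Vg2+ cells by 0.28 (adjusted p = 0.107). The other 4 core subunits passed in no comparison. Ndufv1, the flavin subunit that takes electrons from NADH, had group means of 7.81 ± 0.31 (SD, n = 4), 7.63 ± 0.39 (n = 3) and 7.11 ± 0.46 (n = 4) along the stages of Vg1.1+ cells and 7.56 ± 0.15 (n = 3), 6.87 ± 0.55 (n = 4) and 7.17 ± 0.49 (n = 4) in Vg2+ cells. Ndufs1 kept between 7.12 and 7.37 in all 6 group means. Its differences from the first to the last stage were -0.25 ± 0.10 in Vg1.1+ and -0.15 ± 0.11 in Vg2+ cells, with 95% intervals of -0.46 to -0.04 and -0.38 to 0.08.

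Among the 22 accessory subunits, which surround the core, 4 were called lower over the course of Vg1.1+ cells, beside 23.3% of all tested genes called. All 4 were membrane-arm subunits. Over the course of Vg2+ cells 1 was called higher and 1 lower, beside 24%. Without the narrow arrays 1 was called lower in Vg1.1+ cells beside 24.6%, and 2 higher and 4 lower in Vg2+ cells beside 31.4%. Ndufb9, a membrane-arm subunit of the LYR family, read 9.55, 9.68, 9.70 and 9.12 on the arrays of Vg1.1+ CD24+CD73- cells, 9.41, 8.82 and 8.98 in CD24+CD73+ cells and 8.18, 8.84, 8.71 and 8.77 in CD24-CD73+ cells. All 4 last-stage arrays lay below all 4 first-stage arrays, and Ndufb9 fell by 0.89 ± 0.22 on the log2 scale (limma adjusted p = 0.00538). With the narrow arrays set aside it fell by 0.74 (adjusted p = 0.00109), and the call held with any 1 array left out. The Vg2+ arrays of Ndufb9 read 9.36, 9.20 and 9.32 at the first stage and 8.57, 8.90, 9.07 and 8.69 at the last. These did not overlap either, with a difference of -0.49 ± 0.24 that did not pass with all arrays (adjusted p = 0.162) and passed without the narrow ones (adjusted p = 0.0195).

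Ndufc2, another membrane-arm subunit, was called over the course in both subsets. It read 9.80, 9.80, 9.72 and 9.64 in Vg1.1+ CD24+CD73- cells and 9.02, 9.48, 9.21 and 9.52 in CD24-CD73+ cells, with no overlap, and fell by 0.43 ± 0.12 on the log2 scale (limma adjusted p = 0.0139). In Vg2+ cells Ndufc2 read 9.50, 9.57 and 9.23 at the first stage and 8.81, 9.10, 9.29 and 8.92 at the last, where 1 array overlapped, and fell by 0.41 ± 0.13 (adjusted p = 0.032). The Vg1.1+ call of Ndufc2 ended without Vg1.1+ CD24-CD73+ replicate 1 (adjusted p = 0.0524). The Vg2+ call ended on dropping replicate 1 or 2 of the first stage, or replicate 1 or 4 of the last (adjusted p up to 0.145). The membrane-arm subunits Ndufb3 and Ndufb10 fell over the course of Vg1.1+ cells, by 0.44 ± 0.14 and 0.46 ± 0.15 on the log2 scale (limma adjusted p = 0.0316 and 0.0288), with overlapping groups. Without the narrow arrays their differences were -0.29 and -0.29, with adjusted p of 0.0928 and 0.107, and each call ended without any 1 of 5 arrays of the subset, the narrow one among them (adjusted p up to 0.128 and 0.116).

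Ndufv3, an accessory subunit of the electron-input module, went the other way in Vg2+ cells. It read 8.53, 8.53 and 8.10 at the first stage, 8.47, 8.32, 8.19 and 8.57 at the second and 8.76, 8.76, 8.91 and 8.73 at the last. Every last-stage array was above every earlier one. Ndufv3 rose by 0.41 ± 0.12 as CD24 was lost (limma adjusted p = 0.0195) and by 0.41 ± 0.13 over the course (adjusted p = 0.0266), and both calls share the 4 last-stage arrays. The first call ended on dropping replicate 3 of either of the last 2 stages (adjusted p up to 0.0706), and the second on dropping replicate 3 of the first or the last stage (adjusted p up to 0.208). Ndufa7, an accessory subunit read near the cutoff, was at 4.17, 4.47, 4.88 and 4.80 in Vg2+ CD24+CD73+ cells and 5.96, 5.29, 5.35 and 5.26 in CD24-CD73+ cells. Its difference of 0.89 ± 0.32 had an adjusted p of 0.0542 with all arrays and passed without the narrow ones (0.99 ± 0.23, adjusted p = 0.00355). The other 16 accessory subunits passed in no comparison with all arrays.

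The assembly factors, which help to build complex I and are not part of the finished enzyme, had the calls of lowest p in the first step of Vg2+ cells, the second step of Vg1.1+ cells and the course of Vg2+ cells. Ndufaf3 and Ndufaf4, known from human cells as partners in an early step of assembly, were called in different subsets. Whether the 2 genes varied together was not tested. Ndufaf3 read 7.31, 7.13 and 7.27 in Vg2+ CD24+CD73- cells, 6.51, 6.74, 6.12 and 6.72 in CD24+CD73+ cells and 6.66, 6.93, 6.92 and 6.76 in CD24-CD73+ cells. Every first-stage array lay above every later one. It fell by 0.71 ± 0.15 on the log2 scale as CD73 appeared (limma adjusted p = 0.00195), by 0.58 without the narrow arrays (adjusted p = 0.0015), and the call held with any 1 array left out. Over the whole course of Vg2+ cells Ndufaf3 fell by 0.42 ± 0.15 (adjusted p = 0.0431), a call lost on dropping any 1 of 13 arrays (adjusted p up to 0.136). In Vg1.1+ cells Ndufaf3 read 6.91, 6.69, 6.95 and 6.90, then 6.94, 6.88 and 6.88, then 6.51, 7.15, 6.86 and 6.74. Its first step there was 0.04 ± 0.15, and the test of the difference between the subsets, 0.75 ± 0.21, did not pass (adjusted p = 0.216).

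Ndufaf4 read 5.54, 6.00 and 5.54 in Vg1.1+ CD24+CD73+ cells and 7.16, 6.99, 6.04 and 6.52 in CD24-CD73+ cells. The groups did not overlap, and Ndufaf4 rose by 0.98 ± 0.24 (limma adjusted p = 0.00923), or by 0.82 without the narrow arrays (adjusted p = 0.0197). The call ended without Vg1.1+ CD24+CD73+ replicate 1 or 3 (adjusted p up to 0.055). The first-stage arrays of Vg1.1+ cells read 5.88, 6.46, 6.48 and 6.36 for Ndufaf4, so its mean was lowest at the second stage, and the course difference of 0.38 ± 0.22 did not pass (adjusted p = 0.242). In Vg2+ cells Ndufaf4 kept between 5.88 and 6.81 on all 11 arrays.

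Ndufaf2, a late assembly factor related to the subunit Ndufa12, read 7.71, 7.31 and 7.58 in Vg2+ CD24+CD73- cells, 7.28, 6.46, 7.22 and 7.37 in CD24+CD73+ cells and 6.60, 7.07, 6.56 and 6.75 in CD24-CD73+ cells. The end stages did not overlap. It fell by 0.79 ± 0.20 on the log2 scale over the course (limma adjusted p = 0.00599), with an adjusted p of 0.0057 without the narrow arrays, and the call held with any 1 array left out. In Vg1.1+ cells Ndufaf2 read 7.70, 7.39, 8.05 and 7.66 at the first stage and 7.20, 7.65, 7.12 and 6.94 at the last, a difference of -0.47 ± 0.19 that did not pass (adjusted p = 0.0775). Ndufaf7, a mitochondrial methyltransferase, read 6.12, 5.97, 5.87 and 6.29 in Vg2+ CD24+CD73+ cells and 5.67, 5.76, 5.79 and 5.58 after CD24 loss. It fell by 0.36 ± 0.12 (limma adjusted p = 0.0446, and 0.0131 without the narrow arrays). Dropping any 1 of 13 arrays ended that call (adjusted p up to 0.145). Ndufaf1 and Ndufaf5 passed in no comparison.

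**Figure D3:**
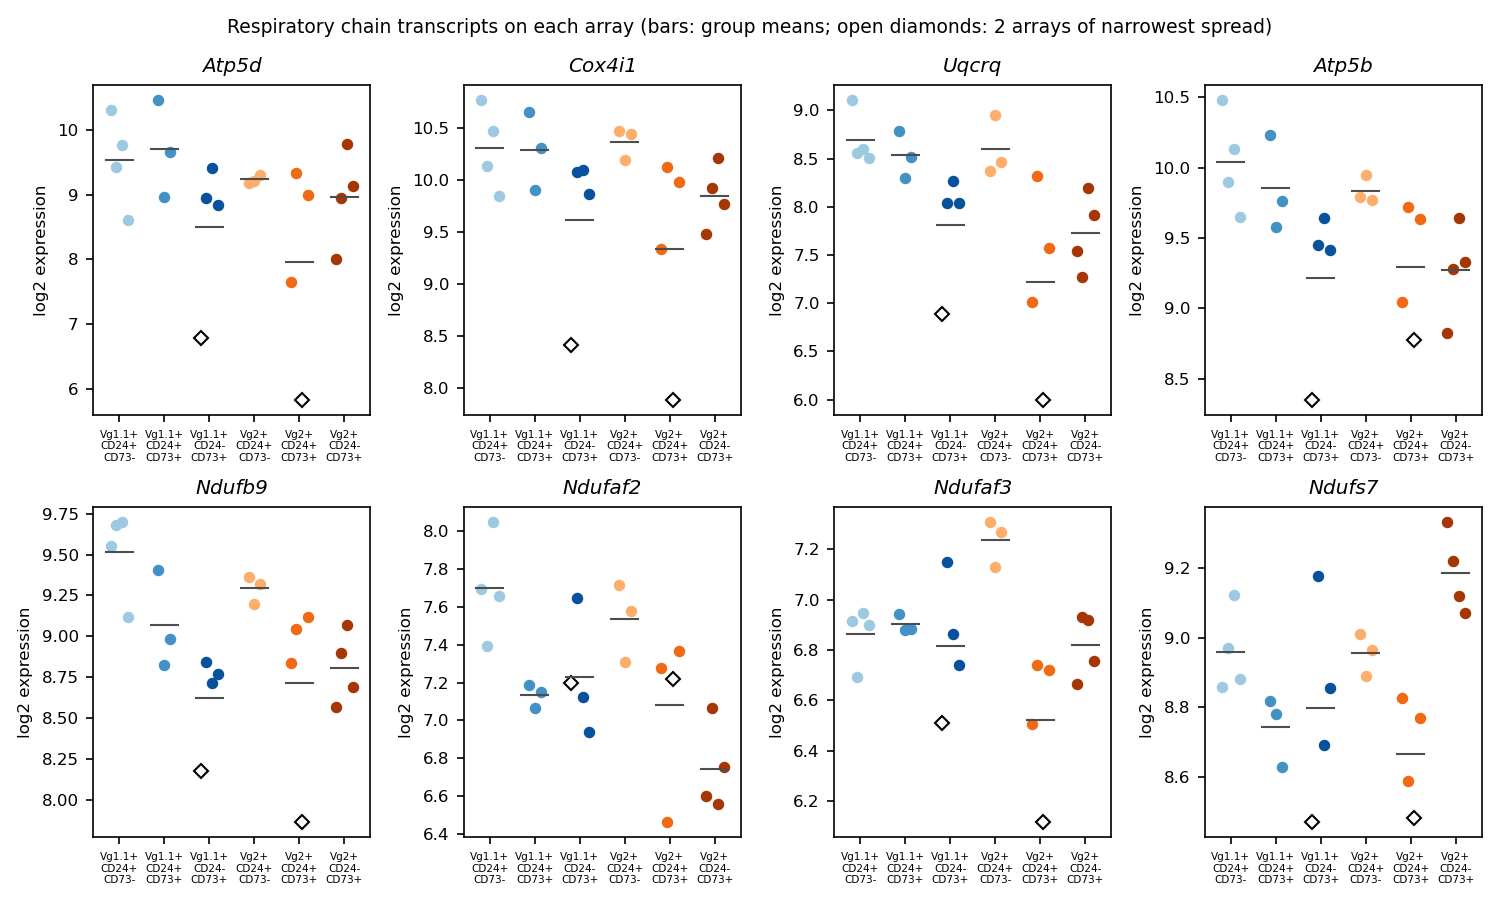
Log2 value of 8 respiratory chain genes on each array (points, by group) with the group mean (bar). Open diamonds are the 2 arrays of narrowest spread, which hold the lowest values of Atp5d (6.79 and 5.82), Cox4i1 and Uqcrq in their groups and lie within their groups for Ndufaf2. Ndufs7 is highest in Vg2+ CD24-CD73+ cells, and Ndufaf3 is highest in Vg2+ CD24+CD73- cells.

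Complex II oxidises succinate in the citrate cycle and has no subunit encoded in mitochondrial DNA. Sdhc, a membrane anchor, read 7.22, 7.07 and 7.18 in Vg2+ CD24+CD73- cells and 6.36, 7.05, 6.74 and 6.84 in CD24+CD73+ cells. It fell by 0.41 ± 0.13 on the log2 scale (limma adjusted p = 0.0482, and 0.0687 without the narrow arrays). Dropping any 1 of 18 arrays ended the call of Sdhc (adjusted p up to 0.169). Sdhb, the iron-sulphur subunit, read 8.69, 8.68 and 8.58 in Vg2+ CD24+CD73- cells and 7.84, 8.48, 8.38 and 8.23 in CD24-CD73+ cells. It fell by 0.42 ± 0.15 (limma adjusted p = 0.0477, and 0.0256 without the narrow arrays), and dropping any 1 of 15 arrays ended the call of Sdhb (adjusted p up to 0.167). Sdha, the catalytic subunit, had group means from 7.60 to 7.90. Its differences from the first to the last stage were -0.25 ± 0.14 in Vg1.1+ cells and close to 0 in Vg2+ cells, the latter with a 95% interval of -0.32 to 0.32. Sdha and the second anchor, Sdhd, passed in no comparison.

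In complex III 1 of 5 genes was called. Uqcrq, a small subunit near the ubiquinone site, read 8.37, 8.95 and 8.46 in Vg2+ CD24+CD73- cells, 7.02, 8.32, 6.00 and 7.57 in CD24+CD73+ cells and 7.54, 7.27, 8.19 and 7.92 in CD24-CD73+ cells. The second-stage arrays spanned more than 2 log2 units and all lay below the first-stage ones. Uqcrq fell by 1.37 ± 0.39 on the log2 scale (limma adjusted p = 0.0217), and by 0.96 ± 0.27 without the narrow arrays (adjusted p = 0.0194). The call of Uqcrq ended on dropping replicate 2 or 3 of the first stage, or replicate 1 or 3 of the second (adjusted p up to 0.113). In Vg1.1+ cells Uqcrq read 9.11, 8.55, 8.60 and 8.51 at the first stage and 6.89, 8.04, 8.27 and 8.04 at the last, again with no overlap. The difference of -0.89 ± 0.36 did not pass (adjusted p = 0.0806). Uqcrc1, a core protein, and Uqcrfs1, the Rieske iron-sulphur protein, had group means of 6.90 to 7.46 and 6.69 to 6.92. The Uqcrfs1 difference over the course was -0.08 ± 0.14 in Vg1.1+ cells and 0.01 ± 0.15 in Vg2+ cells, with both 95% intervals between -0.38 and 0.33. The core proteins Uqcrc1 and Uqcrc2 and the subunits Uqcrfs1 and Uqcr10 passed in no comparison.

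In complex IV, cytochrome c oxidase, 0 of 7 tested genes were called in any comparison. Cox4i1, the common form of subunit 4, showed the low values of the narrow arrays plainly. It read 10.08, 10.10 and 9.86 on replicates 2 to 4 of Vg1.1+ CD24-CD73+ cells and 8.42 on replicate 1, and 9.34, 10.13 and 9.99 on replicates 1, 2 and 4 of Vg2+ CD24+CD73+ cells and 7.89 on replicate 3. The first step of Cox4i1 in Vg2+ cells was -1.03 ± 0.43 with all arrays (adjusted p = 0.129) and -0.55 without the narrow ones (adjusted p = 0.148). Cox5a had group means of 8.08 to 8.50. Of the tissue isoforms 1 passed the filter, Cox6a2, the form of subunit 6a known from heart and skeletal muscle. Cox6a2 read 4.80, 4.89 and 4.88 in Vg2+ CD24+CD73- cells and 5.72, 5.62, 5.12 and 5.49 in CD24+CD73+ cells, with no overlap. Its difference of 0.63 ± 0.21 did not pass with all arrays (adjusted p = 0.0546) and passed without the narrow ones (0.76 ± 0.19, adjusted p = 0.00834). Of 10 measured markers of skeletal muscle and brown fat 5 exceeded the cutoff on no array (Actn3, Pvalb, Ucp1, Cidea and Adipoq). Their summed level was 7.53 to 7.58 and 7.49 to 7.87 in these groups.

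The ATP synthase had 2 of 8 genes called, both over the course. Atp5b, the beta subunit of the catalytic head, read 10.48, 9.90, 10.13 and 9.65 in Vg1.1+ CD24+CD73- cells and 8.35, 9.45, 9.64 and 9.42 in CD24-CD73+ cells. The nearest arrays of the 2 groups, at 9.65 and 9.64, all but met. Atp5b fell by 0.83 ± 0.26 on the log2 scale (limma adjusted p = 0.0245), and without the narrow arrays its difference was -0.54 ± 0.21 (adjusted p = 0.0662). Dropping replicate 1 or 3 of Vg1.1+ CD24+CD73- cells likewise ended the call of Atp5b (adjusted p up to 0.094). In Vg2+ cells Atp5b read 9.79, 9.95 and 9.77 at the first stage and 8.83, 9.28, 9.64 and 9.33 at the last, a difference of -0.57 ± 0.28 that did not pass (adjusted p = 0.167, and 0.0434 without the narrow arrays). Atp5pb, subunit b of the peripheral stalk, read 7.10, 7.24 and 6.96 in Vg2+ CD24+CD73- cells and 6.72, 6.64, 6.58 and 6.77 in CD24-CD73+ cells. It fell by 0.42 ± 0.15 (limma adjusted p = 0.0431, and 0.00712 without the narrow arrays), and dropping any 1 of 12 arrays ended the call of Atp5pb (adjusted p up to 0.181).

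Atp5d, the delta subunit of the central stalk, had the widest swings of the 57 genes and no call. It read 10.32, 9.44, 9.77 and 8.61 in Vg1.1+ CD24+CD73- cells, 10.48, 8.97 and 9.67 in CD24+CD73+ cells and 6.79, 8.95, 9.42 and 8.85 in CD24-CD73+ cells. In Vg2+ cells Atp5d read 9.18, 9.22 and 9.31, then 7.66, 9.34, 5.82 and 9.01, then 8.02, 8.95, 9.79 and 9.14. The lowest value of all, 5.82, and the next, 6.79, came from the narrow arrays, and replicate 1 of each of the last 2 Vg2+ stages was also low. Its largest difference, 1.75 between the subsets at CD24+CD73+, had an adjusted p of 0.219, and 1.04 (adjusted p = 0.345) was left without the narrow arrays. The epsilon subunit Atp5e, which sits beside it in the enzyme, had a pooled SD of 0.165.

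Over the course from the first to the last stage most differences were negative and under 2-fold. In Vg1.1+ cells 44 of 57 differences were negative, with a median of -0.25 beside -0.04 for all tested genes, and in Vg2+ cells 33 were negative, with a median of -0.11 beside -0.03. With the narrow arrays set aside the Vg1.1+ median was -0.14. The Vg2+ median did not change, since both end stages lie outside that pair. For the Vg1.1+ course 43 of 57 genes (75.4%) had a 95% interval within 2-fold in either direction, beside 84% of all tested genes. For the Vg2+ course this held for 45 of 57 (78.9%) beside 81.2%. For the CD73 step of Vg2+ cells it held for 42 of 57 (73.7%) beside 86.3%. The genes that gained a call in the Vg2+ course without the narrow arrays had the same differences as before and smaller pooled errors. They were Atp5a1, Atp5b, Atp5g3, Ndufb8, Ndufb9, Ndufs6 and Uqcrq, all lower, and Cox6a2 and Ndufa7, both higher. The course is the sum of the 2 steps and shares their arrays.

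**Figure D4:**
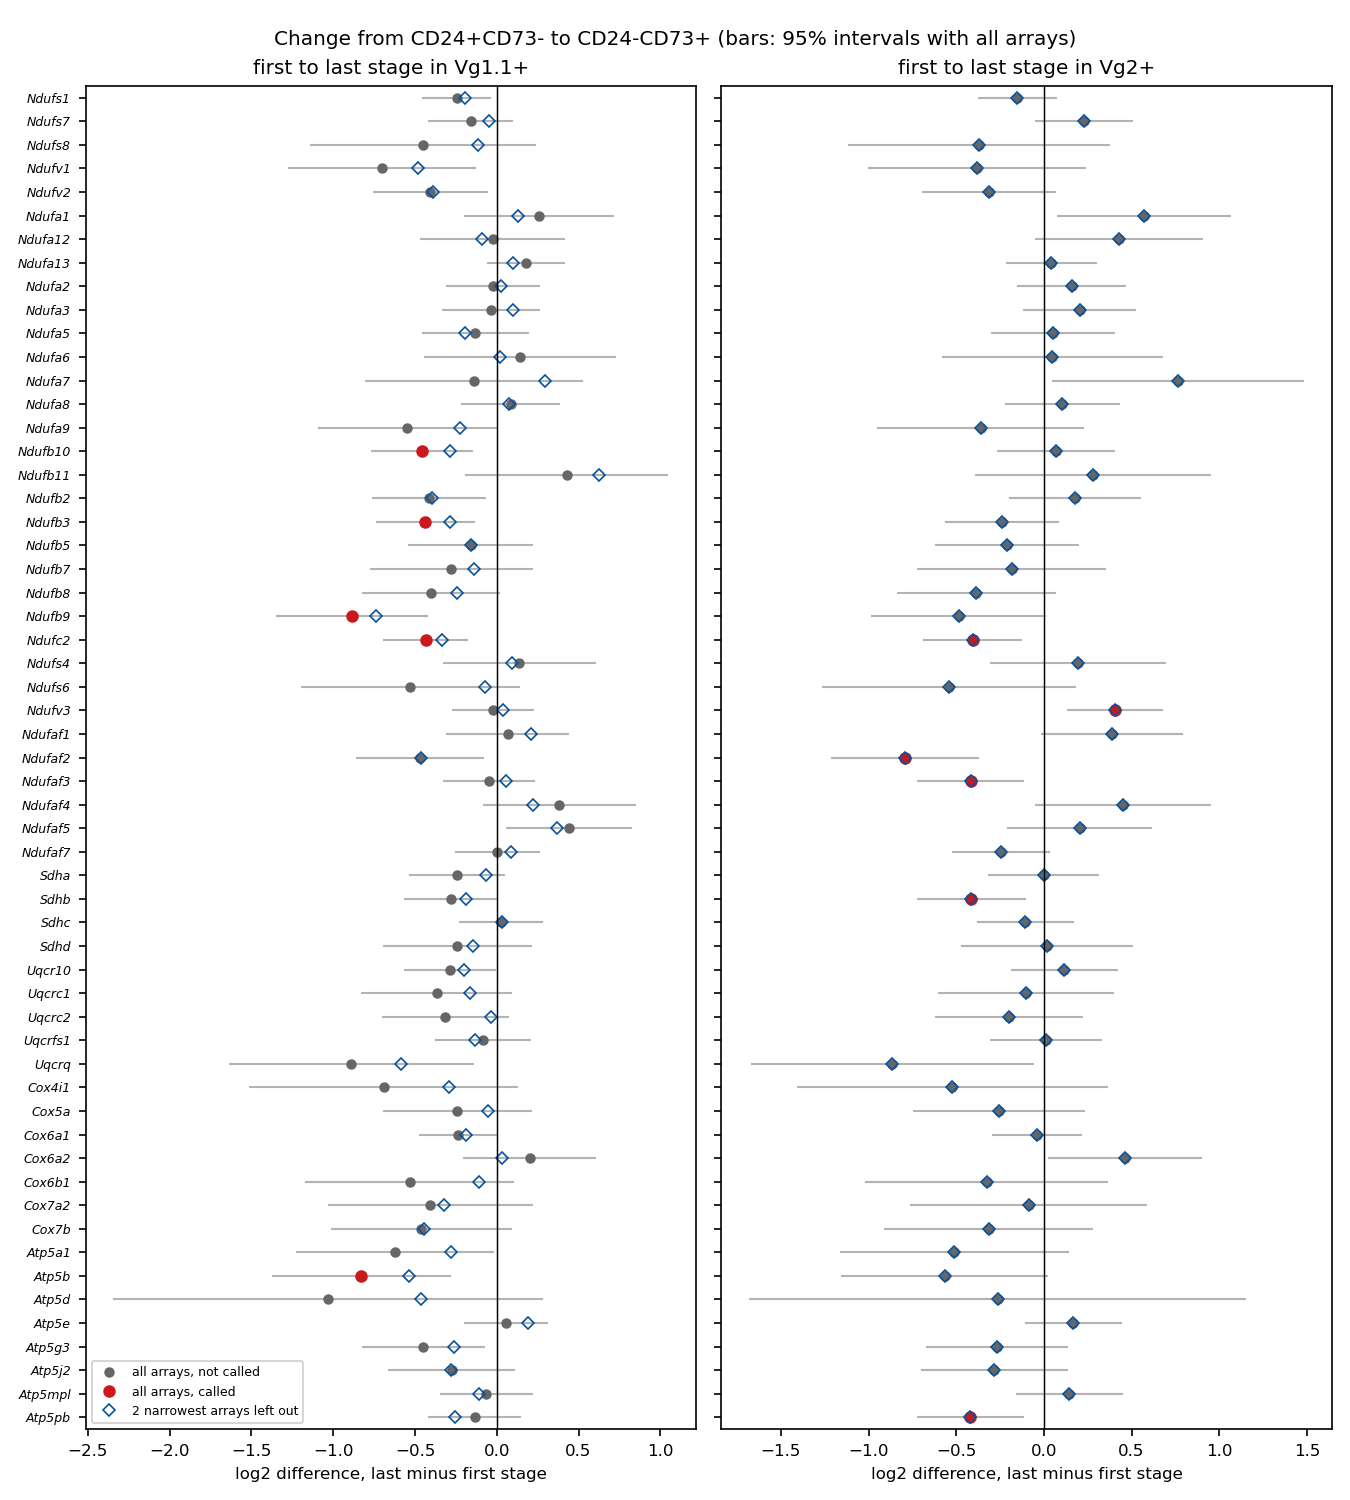
Log2 difference of each of the 57 tested genes between the last and the first stage in Vg1.1+ cells (left) and Vg2+ cells (right), with 95% intervals from all 22 arrays. Red points are called, grey points are not, and open diamonds give the difference without the 2 narrow arrays. In Vg1.1+ cells the diamonds of Atp5d, Atp5b and Cox4i1 lie nearer to 0 than the points, and in Vg2+ cells points and diamonds coincide.

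Between the subsets few of the genes were called. At CD24+CD73- 0 of 57 were called beside 2.05% of all tested genes, and at CD24+CD73+ 0 of 57 beside 0.0117%. At an unadjusted p under 0.05 these were 5 of 57 (8.77%) beside 12.7% of all tested genes and 13 of 57 (22.8%) beside 18.5%. At CD24-CD73+ 1 of 57 was called, Ndufs7, beside 11.5%. Without the narrow arrays these counts were 0 beside 4.29%, 0 beside 0.0819% and 2 beside 16.2%. The pair at the last stage were Ndufc2 and Ndufaf7, higher in Vg1.1+ cells by 0.38 ± 0.12 (limma adjusted p = 0.0411) and 0.39 ± 0.12 (adjusted p = 0.0316). The median differences, Vg1.1+ minus Vg2+, were 0.08, 0.12 and -0.07 at the 3 stages, beside 0.02, 0.07 and 0.01 for all tested genes. Without the narrow arrays the second of these was 0.06, the value of all tested genes too, and the third was 0.05 beside 0.06. The 95% interval lay within 2-fold for 55, 44 and 53 of 57 genes (96.5%, 77.2% and 93%), beside 94%, 89.4% and 90.4% of all tested genes.

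The tests of whether a step differed between the subsets called 0 of 57 genes for the CD73 step beside 0.0936% of all tested genes, and 0 for the CD24 step beside 5.06%. At an unadjusted p under 0.05 these were 5 of 57 (8.77%) beside 9.48% and 9 of 57 (15.8%) beside 19.3%. Without the narrow arrays both were 0 again, beside 0.176% and 5.07%. Ndufaf3 had the lowest adjusted p of the first (0.216) and Ndufb3 of the second (-0.60 ± 0.21, adjusted p = 0.122). These tests had the widest errors: 34 and 37 of 57 genes (59.6% and 64.9%) had a 95% interval within 2-fold, beside 78.8% and 73.9% of all tested genes. The rise of Ndufs7 with CD24 loss in Vg2+ cells was 0.46 ± 0.18 larger than in Vg1.1+ cells and did not pass as a difference (adjusted p = 0.17). The rise of Ndufaf4 in Vg1.1+ cells was 0.76 ± 0.33 larger than in Vg2+ cells and did not pass either (adjusted p = 0.21).

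Other mitochondrial genes, taken from lists of known function, held a few changes seen in both subsets. One was that of Atpif1, which encodes the inhibitor that stops the ATP synthase from running in reverse. Its log2 values were 10.66, 10.80, 11.01 and 10.75, then 10.56, 10.70 and 10.65, then 9.83, 10.15, 9.65 and 9.84 along the stages of Vg1.1+ cells. In Vg2+ cells Atpif1 read 10.82, 10.85 and 10.87, then 10.49, 10.42, 10.39 and 10.66, then 10.19, 9.95, 9.95 and 9.73. In both subsets every last-stage array lay below every earlier one. Atpif1 fell by 0.77 ± 0.12 on the log2 scale with CD24 loss in Vg1.1+ cells and by 0.54 ± 0.11 in Vg2+ cells (limma adjusted p = 0.000185 and 0.00157), and over the course by 0.94 ± 0.11 and 0.89 ± 0.12. Without the narrow arrays its falls with CD24 loss were 0.76 and 0.57 on the log2 scale.

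Of the list of other respiratory chain and assembly genes, 40 of 55 were tested, Atpif1 among them. Over the course of Vg1.1+ cells 2 rose and 4 fell, and in Vg2+ cells 1 rose and 3 fell, with medians of -0.10 and -0.11 (all tested genes: -0.04 and -0.03). Both counts are smaller shares than the 23.3% and 24% of all tested genes called in these courses. Leaving out the narrow arrays gave 2 up and 3 down in Vg1.1+ cells and 2 up and 6 down in Vg2+ cells. Coq7, an enzyme of ubiquinone synthesis, fell in both (-0.67 ± 0.15 and -0.75 ± 0.16, limma adjusted p = 0.00204 and 0.00141), as did Timmdc1, an assembly factor of complex I (-0.47 ± 0.14 and -0.41 ± 0.15). Foxred1, another complex I assembly factor, rose in Vg1.1+ cells, by 0.77 ± 0.17 with CD24 loss and 0.87 ± 0.16 over the course (limma adjusted p = 0.00385 and 0.000247). Its course difference in Vg2+ cells was 0.16 ± 0.17. Cyc1, the cytochrome c1 of complex III, fell over the course of Vg1.1+ cells (-0.59 ± 0.19, limma adjusted p = 0.0286), and without the narrow arrays its difference was -0.44 (adjusted p = 0.0796).

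Among 18 tested regulators of mitochondrial gene expression, Gabpb1 and Nrf1, whose products act on many nuclear genes of the respiratory chain, fell over the course in both subsets. The Gabpb1 differences were -0.56 ± 0.17 in Vg1.1+ and -0.56 ± 0.19 in Vg2+ cells (limma adjusted p = 0.0204 and 0.0325), and those of Nrf1 were -0.34 ± 0.08 and -0.25 ± 0.09 (adjusted p = 0.00461 and 0.0456). The Vg1.1+ call of Gabpb1 ended without the narrow arrays (-0.41, adjusted p = 0.0608). In all 1 regulator rose and 3 fell over the course of Vg1.1+ cells, and 0 rose and 3 fell in Vg2+ cells, the third there being Ssbp1, which binds single-stranded mitochondrial DNA (-0.80 ± 0.21, limma adjusted p = 0.00625). These counts of 4 and 3 of 18 are no larger as shares than the 23.3% and 24% of all tested genes. Leaving out the narrow arrays gave 1 up and 2 down, then 1 up and 3 down. With CD24 loss in Vg2+ cells 2 regulators rose, Pprc1 (0.68 ± 0.16, limma adjusted p = 0.00426) and the mitochondrial transcription factor Tfb1m (0.55 ± 0.18, adjusted p = 0.0348), and 1 fell, the nuclear receptor Esrra (-0.36 ± 0.11, adjusted p = 0.0204). The call of Tfb1m ended without the narrow arrays (0.51, adjusted p = 0.069), Pprc1 and Esrra were still called, and Ssbp1 was called lower (-0.53 ± 0.18, adjusted p = 0.0391). Of 15 tested genes of the citrate cycle and pyruvate dehydrogenase 0 rose and 2 fell over the course of Vg1.1+ cells, and 0 rose and 1 fell in Vg2+ cells, both below the share of all tested genes. Pdha1, a subunit of pyruvate dehydrogenase, fell in both (-0.62 ± 0.20 and -0.76 ± 0.22, limma adjusted p = 0.03 and 0.013). Its Vg1.1+ difference was -0.32 (adjusted p = 0.0452) without the narrow arrays, of which 1 gave the lowest Pdha1 value of the last stage (7.01, group median 8.15). Fh1, fumarate hydratase, fell in Vg1.1+ cells (-0.49 ± 0.12, adjusted p = 0.00515).

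Cell cycle transcripts fell in the same cells. With CD24 loss 22 of 26 tested cell cycle genes fell in Vg1.1+ cells and 24 in Vg2+ cells (beside 11.2% and 20.2% of all tested genes called), with medians of -1.06 and -1.36, against medians of -0.12 and 0.14 for the 57 respiratory chain genes. Without the narrow arrays 22 and 26 cell cycle genes fell, with medians of -0.99 and -1.36, and the respiratory chain medians were 0.01 and 0.05. Kif11, a spindle motor of dividing cells, fell by 1.48 ± 0.27 and 2.14 ± 0.25 on the log2 scale (limma adjusted p = 0.000724 and 1.32e-06). Over the course all 26 fell in Vg1.1+ cells and 24 in Vg2+ cells, beside 5 of 57 respiratory chain genes in each. Ndufs7, Ndufv3, Ndufaf4 and Ndufaf7 were called in the step in which the cell cycle transcripts fell, and the part of cell division in those changes was not tested.

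**Figure D5:**
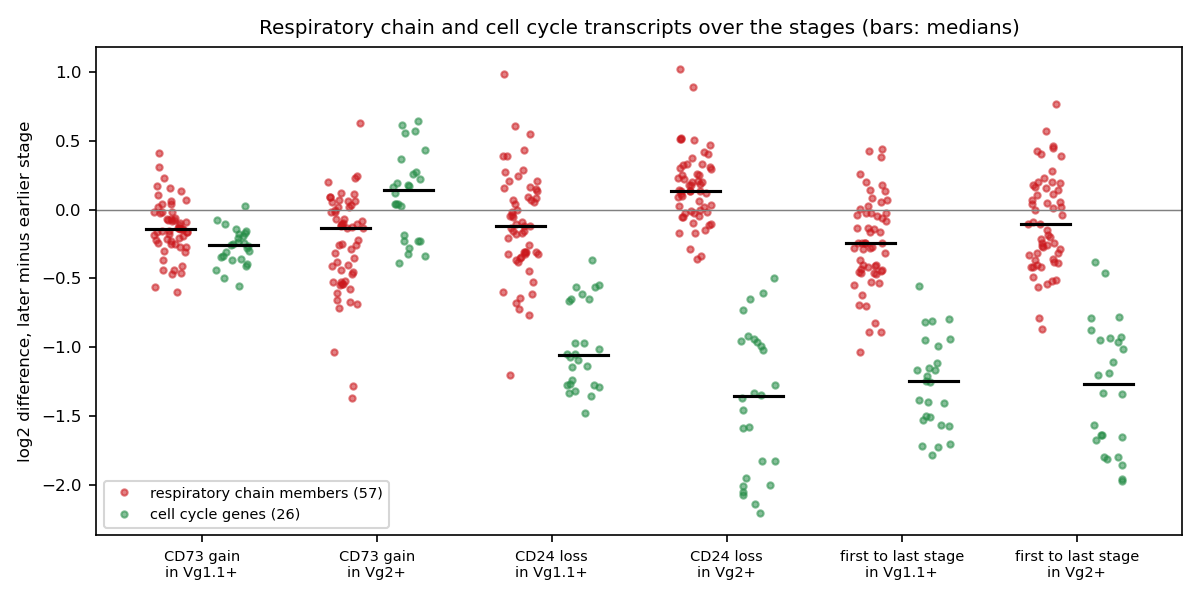
Log2 difference, later minus earlier stage, of each of the 57 respiratory chain genes (red points) and each of 26 cell cycle genes (green points) in 6 comparisons, with medians as bars. The cell cycle medians drop to -1.06 and -1.36 at CD24 loss while those of the respiratory chain genes stay at -0.12 and 0.14.

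Markers of other cells also moved between the groups. Of 6 measured markers of alpha-beta lineage thymocytes Rag2 exceeded the cutoff on no array. Their summed level was 9.32 to 10.04, 8.71 to 8.97 and 7.85 to 8.56 along the stages of Vg1.1+ cells. In Vg2+ cells it was 9.10 to 9.26, 8.79 to 9.04 and 7.82 to 8.42. The single markers did not all follow the sum. With CD24 loss 3 of the 4 tested ones were higher in Vg1.1+ cells and 2 of 4 in Vg2+ cells. Cd8b1 was called higher and Themis lower in both subsets. Of 7 myeloid markers Itgam, Csf1r, C1qa and Adgre1 exceeded the cutoff on no array. The summed level was 7.04 to 7.43 in Vg2+ CD24+CD73+ cells and 6.48 to 7.10 on the arrays of the other 5 groups. All 3 tested myeloid markers, C1qb, H2-Aa and Cd68, were called higher in the CD73 step of Vg2+ cells, with and without the narrow arrays. In that step Ndufaf3, Uqcrq and Sdhc were called lower with all arrays. In the CD73 step of Vg1.1+ cells 0 of the 3 markers were called. Of 4 B-cell markers Ms4a1 exceeded the cutoff on no array. The summed level was 8.30 to 8.87 in Vg2+ CD24-CD73+ cells, where Ndufs7 and Ndufv3 were highest, and 7.01 to 8.39 elsewhere. Of the 2 tested B-cell markers Cd79b was called higher with CD24 loss in Vg2+ cells, and the difference of the other was negative. Of 5 markers of thymic epithelium Krt5, Foxn1 and Psmb11, and of 2 erythroid markers Klf1, exceeded the cutoff on no array. Their summed levels were 6.48 to 7.12 and 4.68 to 5.27. Of the 2 tested markers of thymic epithelium Epcam was called lower with CD24 loss and over the course in both subsets. The difference of the other was positive in each of these comparisons. Without the narrow arrays 1 of the 2 was again called lower in each. The part of these cells in the differences above was not tested.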

How the data were processed

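The authors deposited log2 expression values, 1 column per array, made with RMA and the oligo package per the submitters' processing notes (versions, genome build and annotation not given in the sources used here). Per the labels, total RNA from Trizol was labelled with biotin. The SD of the deposited log2 values differed between arrays, and the files do not show if they were normalised in 1 run.

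Probe sets with 1 symbol were kept, with the highest mean where a gene had several. Group means were fitted to all 22 arrays at once with limma 3.58.1 (R 4.3.3) and empirical Bayes moderation, with no further normalisation. A gene entered if it was above 4.55 on at least 3 arrays. Two-sided p-values were adjusted by the Benjamini-Hochberg method over 8545 genes, with a call threshold of 0.05. On data simulated for the CD24 step of Vg2+ cells over 8545 genes, the fit recovered 33% of 200 genes changed by 0.5 on the log2 scale and 89.5% of 200 changed by 1. The changed genes were drawn from all tested genes, with noise independent between genes. The 57 genes had a larger median residual SD (0.279 against 0.218), and recovery for them alone was not simulated. The depth of an array has no count, and the number of arrays limits the precision.

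Alternatives were dropping the filter or raising it to the 65th percentile (5.46), blocking on the replicate number, cyclic loess or quantile normalisation on top of the deposited values, the array SD as a covariate, leaving out the 2 narrowest arrays or each array in turn, limma's trend and robust options, fitting only the groups compared, and testing all probe sets. Full statistics went to the called genes of largest difference, 6 per direction and comparison, and to a fixed set of subunits. Other lists gave up to 4 called genes per comparison, and Ndufa7, Atp5d and Atp5a1 were named after their values had been seen. Members, lists, the narrow arrays and alternatives were chosen with earlier results of these data known. The summed level of a marker list is the log2 of the sum of its unlogged values. Promoter sequences are RefSeq's, build GRCm38.p6.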

Additional observations from a re-analysis of the deposited data

Results flagged for a closer look

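In groups of 4 arrays, 23 named genes and the array summaries were checked for an array far from the other 3 (100 groups in all), and 10 stood out, where chance gives about 1 in 20. Of the 10, 6 lay on the 2 arrays of narrowest spread. On Vg1.1+ CD24-CD73+ replicate 1 Cox4i1 read 8.42 (9.86 to 10.10 on the other arrays), Sdha 7.11 (7.76 to 7.89) and Uqcrq 6.89 (8.03 to 8.26), each the lowest, and Atp5pb read 7.31 (6.82 to 6.86), the highest. On Vg2+ CD24+CD73+ replicate 3 the median of the tested genes was lowest at 7.64 (8.30 to 8.43 on the others), as was the SD of the array at 1.71 (1.91 to 1.95). Other arrays held the remaining 4. Ndufaf2 was lowest on Vg2+ CD24+CD73+ replicate 2 at 6.46 (7.22 to 7.37), Ndufaf7 was highest on Vg1.1+ CD24+CD73- replicate 3 at 6.24 (5.92 to 5.93), Ndufv3 was highest on Vg2+ CD24-CD73+ replicate 3 at 8.91 (8.73 to 8.76), and Uqcrq was highest on Vg1.1+ CD24+CD73- replicate 1 at 9.11 (8.51 to 8.60). The cause of none was tested.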

How the results depend on the processing

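Of the 19 calls of respiratory chain genes, 4 held under every alternative and with each array left out: Ndufaf3 (CD73 step, Vg2+), Ndufs7 (CD24 step, Vg2+), Ndufb9 (course, Vg1.1+) and Ndufaf2 (course, Vg2+). No call changed sign. With 1 array left out the number of genes called ranged from 0 to 1 and from 1 to 7 for the CD73 step (Vg1.1+, then Vg2+), from 0 to 2 and from 2 to 6 for the CD24 step, from 1 to 10 and from 2 to 8 for the course, and from 0 to 0, 0 to 4 and 0 to 2 between the subsets at the successive stages. It ranged from 0 to 0 and from 0 to 2 for the subset difference in the CD73 and CD24 steps. The course of Vg1.1+ cells had 1 call without Vg1.1+ CD24-CD73+ replicate 1 and 10 without replicate 2, and the CD73 step of Vg2+ cells had 7 without Vg1.1+ CD24-CD73+ replicate 1.

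Among the other alternatives, the CD73 step of Vg1.1+ cells had 2 calls with the array SD as a covariate, 1 without the narrow arrays and 4 with only its own groups fitted, where the CD24 step of Vg1.1+ cells had 0. The CD24 step of Vg2+ cells had 5 with cyclic loess. The course of Vg1.1+ cells had 3 with cyclic loess, 2 with quantile normalisation, 3 with the SD covariate, 1 without the narrow arrays and 1 with only its groups. The course of Vg2+ cells had 2 with no filter, 15 without the narrow arrays and 13 with only its groups. Vg1.1+ minus Vg2+ cells at CD24+CD73- had 1 with the SD covariate. At CD24-CD73+ that comparison had 3 with cyclic loess, 2 with quantile normalisation, 3 with the SD covariate, 2 without the narrow arrays, and 0 with no filter, with trend and robust options or with only its groups. The cause of these moves was not tested.

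With the replicate number as a block the courses of Vg1.1+ and Vg2+ cells had 3 and 2 calls and the last-stage subset comparison 0. Same-numbered arrays of different groups had residual correlations of -0.67 to 0.56 (median -0.16, 6 of 51 over 0.1). Other-numbered arrays of different groups had correlations of -0.57 to 0.73 (median 0.04, 65 of 150 over 0.1). Arrays of the same number thus did not deviate together more than others did. Whether they shared a preparation or a batch cannot be told from these values. The median differences moved by less than 0.24, the pooled SD of the array median within groups. That spread is larger than most of the medians, so staying within it says little. Under the alternatives the course median ranged from -0.25 to -0.05 in Vg1.1+ cells and from -0.13 to -0.02 in Vg2+ cells. The medians of the CD24 step in Vg1.1+ cells, of the subsets at the last 2 stages and of the subset difference in the CD73 step crossed 0 (for the first, -0.20 to 0.06).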
